A study of Mus musculus with 6 samples.

Results

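The genes described here are the Toll-like receptors and the proteins that work directly beside them in mouse 3T3 fibroblasts, 10 genes in all of the 41819 genes listed. They are the receptors Tlr1, Tlr2, Tlr3, Tlr4 and Tlr6, the co-receptors Cd14 and Ly96, and the adaptors Ticam1, Ticam2 and Tirap, each taken by its gene name. 3T3 cells are an immortal fibroblast line from Swiss albino mouse embryos. The experiment asked what changes in such cells when human poly(ADP-ribose) glycohydrolase (hPARG), the enzyme that breaks down poly(ADP-ribose), is expressed. All 6 samples came from 1 puromycin-selected clone with a lentiviral, doxycycline-inducible (TetOne) cassette for hPARG. The methods describe a cassette that also gives the fluorescent protein mClover3 from the same transcript, but their name for the sequenced clone leaves mClover3 out. In the hPARG group 3 dishes received 500 ng/ml doxycycline for 72 h, and in the control group 3 dishes of the same clone received none. No doxycycline-treated cells without the cassette are among these samples, so doxycycline and hPARG cannot be told apart, and a single clone cannot stand for other clones.

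The dishes held 21619908 to 25263818 counts each. CPM (counts scaled to the library total) are given after TMM normalization of that total, and levels between genes are compared only as RPKM, the authors' values scaled by gene length and library total. Values are mean ± SD over 3 dishes, and p-values measure the spread between dishes of 1 clone only. Of all genes, 11509 passed the filter on low counts and were tested with edgeR's quasi-likelihood test, with Benjamini-Hochberg adjustment (FDR) over all of them. The median log2 fold change (hPARG against control) of these genes was 0.00. Both dishes numbered 2 stood apart from the others. In a chi-square comparison of counts within a group, the pairs with dish 2 differed by 42.3 to 76.6 per degree of freedom, whereas dishes 1 and 3 differed by 15.2 (control) and 16 (hPARG). The fold changes of the 8 tested genes are therefore also given without both dishes numbered 2. The fibroblast label held against its markers, with 7 of 8 expressed and a summed level of 6120 to 7850 CPM in control and 7080 to 8960 CPM in hPARG dishes. Single markers differed between the groups. Of the 8, 4 had an unadjusted p under 0.05 in edgeR's quasi-likelihood test, where 3.95% of all tested genes did. The CPM ranges of the same 4 did not overlap, which held for 9.62% of all tested genes. Col1a1, Col3a1 and Thy1 were higher in hPARG dishes (log2 fold changes of 0.58, 0.39 and 0.30), and Pdgfra was lower (-0.40). Over all 6 dishes none passed the edgeR FDR (0.0869% of all tested genes did), and the median over the 8 was 0.34. Without both dishes numbered 2, 1 of the 8 passed it, where 0.345% of all tested genes did. This was Col1a1, with a log2 fold change of 0.63 (edgeR FDR 0.00674). The part of these differences in the results below was not tested. Macrophages express many Toll-like receptors, and 10 macrophage markers summed to 6.02 to 10.0 CPM in control and 6.31 to 10.0 CPM in hPARG dishes. Of these markers 1 (Lyz2) was expressed, at 6.48 ± 1.85 CPM in control and 6.2 ± 1.78 CPM in hPARG dishes. Cd68 had 21, 14 and 23 counts in control and 11, 17 and 21 in hPARG dishes. Aif1 had 7, 11 and 2 counts against 8, 20 and 16, with a log2 fold change of 1.17 (edgeR FDR 0.999). The macrophage genes Adgre1, Tyrobp and Fcgr1 stayed at 3 counts or fewer in every dish. The endogenous mouse Parg gene had a log2 fold change of 0.04 (SE 0.112, edgeR FDR 0.999), and no row holds the human transgene.

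Toll-like receptors recognise molecules of microbes and of damaged cells, either at the cell surface (Tlr1, Tlr2, Tlr4, Tlr6) or in endosomes (Tlr3). Tlr2 pairs with Tlr1 or Tlr6 to bind lipopeptides, Tlr3 binds double-stranded RNA, and Tlr4 binds lipopolysaccharide with the help of Cd14 and of Ly96 (MD-2). Their cytoplasmic domains recruit adaptors, Tirap (MAL) with Myd88, or Ticam2 (TRAM) with Ticam1 (TRIF), which lead to NF-kB and to interferon regulatory factors. Fibroblasts are known to respond to several of these ligands.

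Of the 10 genes, 7 were expressed, that is, at least 1 of the groups had a mean RPKM above 1. Tlr4 stood first with a mean of 6.10 RPKM over the 6 dishes, followed by Cd14 (4.89), Tlr2 (2.92), Ticam1 (2.67), Tirap (2.31), Ly96 (1.31) and Tlr3 (1.05). Even Tlr4 lay at the percentile 42.5 of the tested genes by RPKM, and Tlr3 at 13.9. Several neighbours in this order were not separated by the spread between dishes. The ranges of Tlr4 and Cd14 overlapped in the control group, those of Ticam1 and Tirap in the control group, and those of Ly96 and Tlr3 in both groups. Tlr2 was above Ticam1 in 3 of 3 control dishes and below it in 3 of 3 hPARG dishes.

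**Figure D1:**
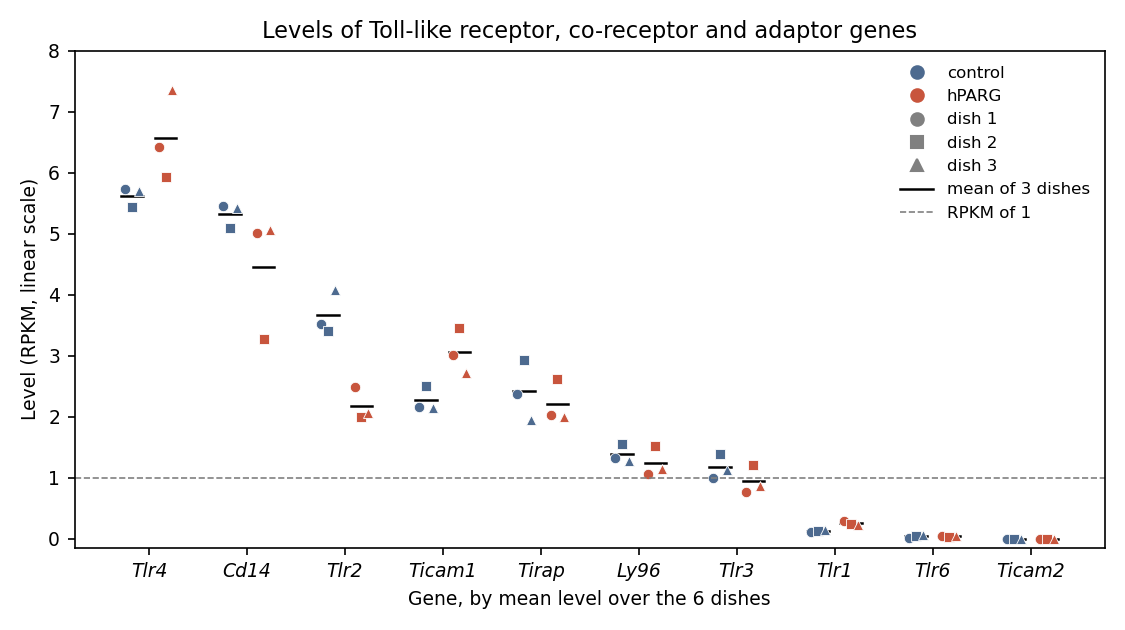
RPKM (linear axis) of the 10 genes in each dish, in the order of their mean, with control dishes in blue, hPARG dishes in red, circles, squares and triangles for dishes 1, 2 and 3, and black bars for the mean of 3 dishes. Tlr4 and Cd14 lie highest, and Tlr1, Tlr6 and Ticam2 lie below the dashed line at 1 RPKM.

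Not expressed by this measure were Tlr1, Tlr6 and Ticam2. Ticam2 (chromosome 18, 46557291 to 46574533), the bridging adaptor that links Tlr4 to Ticam1, had 0 counts in all 6 dishes. A count of 0 allows up to 3 counts, which here means up to 0.117 to 0.141 CPM depending on the dish, and this limit covers counting error only. In the annotation 14.5% of the Ticam2 exon bases are also exon bases of Tmed7 on the same strand, which had 1202 to 1535 counts, so reads there could have been given to Tmed7. For Tlr6 (chromosome 5, 64952031 to 64960097) the counts were 1, 4 and 5 without hPARG (dishes are always given in the order 1 to 3) and 4, 2 and 4 with it, which overlap and were too few to be tested. Its mean RPKM was 0.0368 in control and 0.0363 in hPARG dishes. Tlr1, the other partner of Tlr2, had a mean RPKM of 0.128 in control and 0.249 in hPARG dishes. Tlr1 and Tlr6 are near-identical copies in places, with 15.4% of the Tlr1 50-base words also found elsewhere, mainly in Tlr6, so their low counts are uncertain between them.

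In the comparison of hPARG with control, none of the tested 8 (0 genes) reached an edgeR FDR under 0.05, with or without the further demand for a 2-fold difference. Over all tested genes 10 did so, a share of 0.0869%. At an unadjusted p under 0.05, 3 of the 8 stood out, where the share over all genes was 3.95%. Of these Tlr1 and Ticam1 were higher in hPARG dishes (1.42% of all genes) and Tlr2 was lower (2.54% of all genes). The CPM ranges of the groups did not overlap for the same 3 genes, against 9.62% of all tested genes, 3.61% higher and 6.00% lower. By DESeq2 and by edgeR's likelihood ratio test 1 of the 8 (Tlr2) passed the FDR, where 0.452% and 0.565% of all genes did, and 0 of the 8 also differed by 2-fold (0.191% and 0.261% of all genes). Without both dishes numbered 2, 3 of the 8 (Tlr2, Ticam1 and Tlr4) had an unadjusted p under 0.05, against 6.78% of all genes, and 0 passed the FDR (0.345% of all genes, or 0.164% at over 2-fold). The median log2 fold change of the 8 genes was -0.11, with a range from -0.72 to 0.99. Tlr1 passed the filter on low counts only through the hPARG group, with 1 of 3 control and 3 of 3 hPARG dishes over 0.444 CPM, so its place among the 8 is not independent of its difference.

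**Figure D2:**
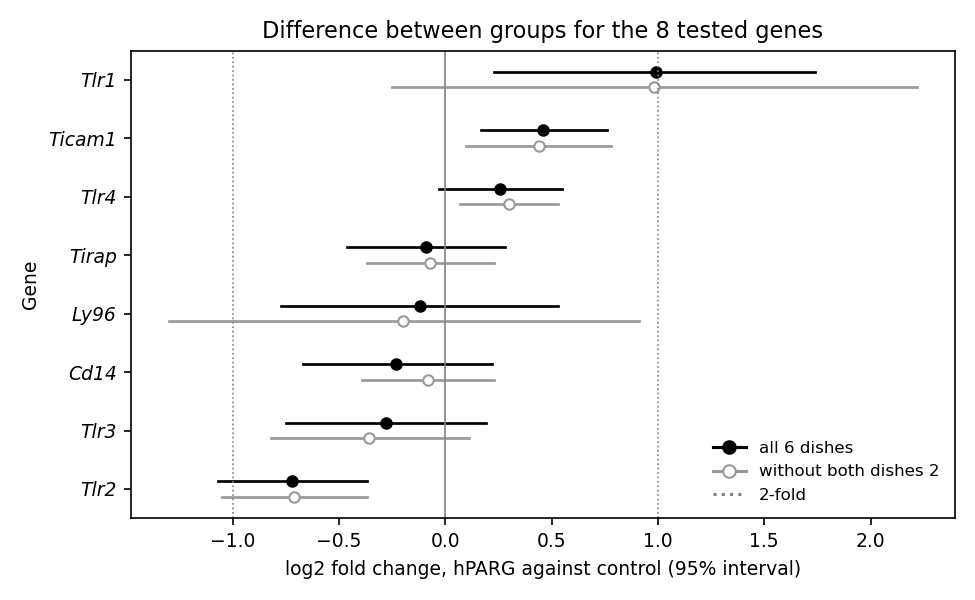
Log2 fold change (hPARG against control) of the 8 tested genes with 95% intervals, in black for all 6 dishes and in open grey symbols without both dishes numbered 2, with dotted lines at a 2-fold difference. The interval of Tlr2 lies below 0 in both fits (-0.72 and -0.71), that of Ticam1 above 0 in both (0.46 and 0.44), and that of Tlr1 crosses 0 without the dishes numbered 2.

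Tlr2 (ENSMUSG00000027995, chromosome 3, 83836272 to 83841767, minus strand, GRCm38) showed the smallest p of the 8. The control dishes had 291, 249 and 291 counts, and the hPARG dishes had 179, 157 and 153. In CPM these were 11.4, 10.7 and 13.7 against 8.21, 6.47 and 7.02, and each hPARG dish lay below each control dish. The mean was 11.9 ± 1.58 CPM in control and 7.23 ± 0.887 CPM in hPARG dishes (n = 3 each). In these bulk samples fewer cells with Tlr2 RNA and less of it per cell cannot be told apart. The log2 fold change was -0.72 (SE 0.15, 95% interval -1.07 to -0.37), or 1.65-fold lower, with an edgeR FDR of 0.419. DESeq2 gave an FDR of 0.0295 and edgeR's likelihood ratio test 0.00751, so the call depended on the test, while the estimate stayed between -0.82 and -0.61 whichever single dish was left out. Without both dishes numbered 2 it was -0.71 (95% interval -1.05 to -0.37, edgeR FDR 0.114).

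Ticam1 (ENSMUSG00000047123, chromosome 17, 56269319 to 56276786, minus strand), the adaptor of Tlr3 and of endosomal Tlr4, lay on the other side. It had 177, 182 and 153 counts in control and 216, 269 and 201 in hPARG dishes. In CPM the control dishes stood at 6.91, 7.83 and 7.21 and the hPARG dishes at 9.90, 11.1 and 9.22, with no overlap. The difference of the means, 7.32 ± 0.469 against 10.1 ± 0.944 CPM, was 1.38-fold, with a log2 fold change of 0.46 (SE 0.127, 95% interval 0.17 to 0.76, edgeR FDR 0.792). Without the dishes numbered 2 it was 0.44 (95% interval 0.10 to 0.78, edgeR FDR 0.51).

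The sequences upstream of Tlr2 and Ticam1 are shown because only these 2 expressed genes did not overlap between the groups in CPM. These genes differed in opposite directions. In RPKM, Tlr4 and Cd14 did not overlap either. The sequences come from the RefSeq promoter windows (GRCm38.p6, 250 bases before to 50 after the start). They are cut back to the bases before the first exon of the GENCODE annotation and written 5′ to 3′. Windows were found for 6 of the 10 genes, and Tlr4, Cd14, Ly96 and Ticam2 had none. Capitals mark matches to the NF-kB consensus, which in Tlr2 (chr3:83841768-83841858, minus strand) are GGGGAATTCC and GGGAATTCCC, overlapping each other. A further Tlr2 match, GGGACATCCC (chr3:83841607-83841616), lies in a GENCODE exon and so outside the stretch shown. It begins 8 bases upstream of the RefSeq start (83841608) and spans that start. The Ticam1 stretch (chr17:56276787-56277017, minus strand) has no match.
Tlr2: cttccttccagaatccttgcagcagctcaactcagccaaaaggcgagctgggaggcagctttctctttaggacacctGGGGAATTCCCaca
Ticam1: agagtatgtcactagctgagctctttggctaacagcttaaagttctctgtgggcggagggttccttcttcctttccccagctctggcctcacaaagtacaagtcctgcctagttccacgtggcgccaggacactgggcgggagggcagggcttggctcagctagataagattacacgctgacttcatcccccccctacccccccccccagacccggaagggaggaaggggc
Matches were sought on both strands to the NF-kB consensus, an element of the interferon response type (GAAA, any 2 bases and GAAA) and the AP-1 element TGANTCA, and no match to one of them overlapped a match to another in these 6 genes. In their full windows, 2 of 6 genes held the NF-kB consensus (Tlr2 and Tlr3, the latter within an exon), 1 of 6 the interferon response type (Tlr6) and 0 of 6 TGANTCA. Over all 27025 genes with such windows, 9.55%, 3.99% and 8.97% held them. A match describes letters only, and no binding was measured.

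**Figure D3:**
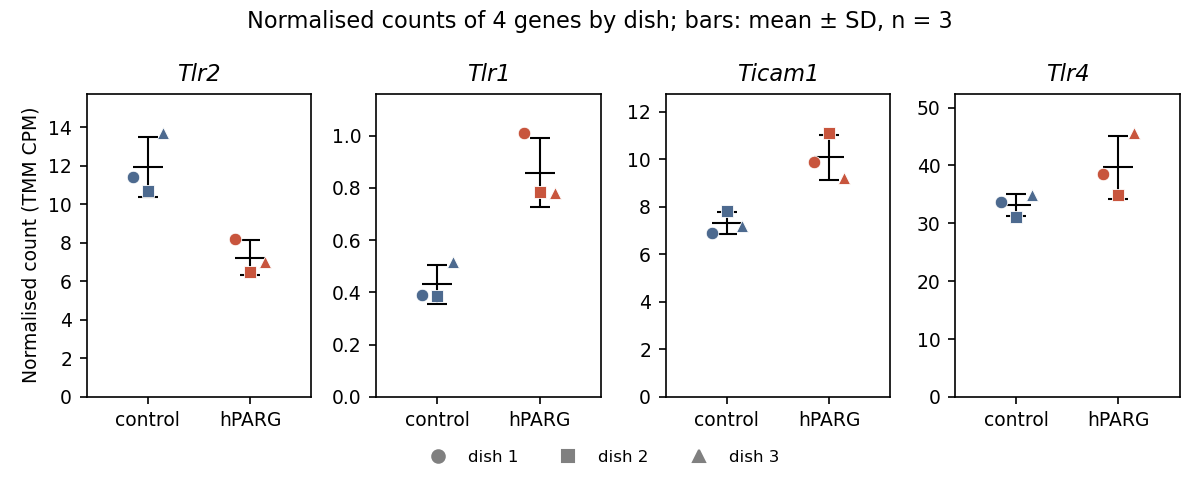
TMM-scaled CPM of Tlr2, Tlr1, Ticam1 and Tlr4 in each dish (points), with the mean and SD of 3 dishes and axes from 0. The groups are apart for Tlr2, Tlr1 and Ticam1, whereas for Tlr4 hPARG dish 2 and control dish 3 meet at 34.9 CPM.

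Among the other receptors, Tlr1 (ENSMUSG00000044827, chromosome 5, 64924679 to 64933563) had 10, 9 and 11 counts in control and 22, 19 and 17 in hPARG dishes. Its CPM was 0.432 ± 0.0749 against 0.857 ± 0.131, with a log2 fold change of 0.99 (SE 0.326, 95% interval 0.23 to 1.74, edgeR FDR 0.981). Without the dishes numbered 2 the log2 fold change was 0.98 (SE 0.571, 95% interval -0.25 to 2.22, edgeR FDR 0.817). With so few counts the size of this difference is known only loosely, and the level stayed below 1 RPKM in every dish.

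Tlr4 (ENSMUSG00000039005, chromosome 4, 66827584 to 66930284), the lipopolysaccharide receptor, had 862, 722 and 740 counts in control and 842, 846 and 993 in hPARG dishes. This was 33.6, 31.1 and 34.9 CPM against 38.6, 34.9 and 45.6 CPM, so the groups touched on this scale. In RPKM they did not overlap, at 5.74, 5.44 and 5.70 in control and 6.42, 5.93 and 7.36 in hPARG dishes. The log2 fold change was 0.26 (SE 0.124, 95% interval -0.03 to 0.55, edgeR FDR 0.999), and 0.30 without the dishes numbered 2 (95% interval 0.07 to 0.53, edgeR FDR 0.51). Without hPARG dish 3 alone, the highest of the 6, it was 0.15. The difference is not larger than the spread between dishes by this test, which does not show that the levels were equal. The ratio of Tlr2 to Tlr4, looked at after their values were seen, was 0.650 ± 0.0549 in control and 0.334 ± 0.0531 in hPARG dishes on the RPKM scale. The ratio of Cd14 to Tlr4 was also lower (0.946 ± 0.00789 against 0.673 ± 0.115). That of Tlr1 to Tlr2 was higher (0.0349 ± 0.00166 against 0.114 ± 0.00612). That of Ly96 to Tlr4 overlapped (0.247 ± 0.0355 against 0.192 ± 0.055). Such ratios were not set against those of other gene pairs.

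Tlr3 (ENSMUSG00000031639, chromosome 8, 45395665 to 45411080), the endosomal receptor, had 135, 165 and 130 counts in control and 89, 153 and 104 in hPARG dishes. Its mean was 6.16 ± 0.915 CPM in control and 5.05 ± 1.14 CPM in hPARG dishes, and the groups overlapped, with hPARG dish 2 above 2 control dishes. The log2 fold change was -0.28 (SE 0.202, 95% interval -0.75 to 0.19, edgeR FDR 0.999), and -0.36 without both dishes numbered 2. Single dishes mattered here, as it was -0.48 without hPARG dish 2, -0.15 without hPARG dish 1 and -0.17 without control dish 2. An RNA on the other strand, Gm45542, shares 7.32% of its exon bases and had 0 counts.

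Of the co-receptors, Cd14 (ENSMUSG00000051439, chromosome 18, 36725067 to 36726798), which passes lipopolysaccharide to Tlr4 and also serves Tlr2, had 246, 203 and 211 counts in control and 197, 140 and 205 in hPARG dishes. In CPM the control dishes lay at 9.60, 8.73 and 9.95 and the hPARG dishes at 9.03, 5.77 and 9.40. On this scale only hPARG dish 2 was outside the control range. In RPKM the groups did not overlap, at 5.46, 5.10 and 5.42 in control and 5.01, 3.27 and 5.06 in hPARG dishes. The log2 fold change of -0.23 (SE 0.193, 95% interval -0.67 to 0.22, edgeR FDR 0.999) became -0.08 (95% interval -0.39 to 0.23) without the dishes numbered 2, and -0.03 without hPARG dish 2 alone. Ly96 (ENSMUSG00000025779, chromosome 1, 16688051 to 16709611), which Tlr4 needs to bind lipopolysaccharide, had 23, 24 and 19 counts against 16, 25 and 18. Its log2 fold change was -0.12 (SE 0.282, 95% interval -0.77 to 0.53, edgeR FDR 0.999). It was -0.20 without the dishes numbered 2, and with single dishes left out it ran from -0.27 to -0.02.

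Tirap (ENSMUSG00000032041, chromosome 9, 35184551 to 35200291), which recruits Myd88 to Tlr2 and Tlr4, had 320, 350 and 228 counts in control and 239, 335 and 243 in hPARG dishes. In RPKM the groups overlapped, at 2.37, 2.93 and 1.95 in control and 2.02, 2.61 and 2.0 with hPARG. The log2 fold change was -0.09 (SE 0.16, 95% interval -0.46 to 0.28, edgeR FDR 0.999), and -0.07 without the dishes numbered 2. Of its exon bases, 9.84% are shared with genes on the other strand, among them Srpr with 2549 to 2978 counts. Whether counting used strand is not given in the sources used here.

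Across the genes, dish 2 was often at an end of its group. Both dishes numbered 2 had the highest CPM of their group for Tlr3, Ly96, Ticam1 and Tirap, and the lowest for Tlr2, Tlr4 and Cd14.

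Around these genes, the other mouse Toll-like receptors were almost silent. Of 7 (Tlr5, Tlr7, Tlr8, Tlr9, Tlr11, Tlr12 and Tlr13), 6 stayed at 3 counts or fewer in every dish, and Tlr7 had between 2 and 10 counts. Unc93b1, which carries endosomal receptors to their compartment, had 0, 0 and 1 counts in control and 1, 0 and 3 in hPARG dishes. Of 7 chaperones and accessory proteins, 3 were tested and 0 passed the FDR, where 0.0869% of all tested genes did. The folding chaperone Hsp90b1 stood at 228 RPKM in control and 225 RPKM in hPARG dishes. The lipopolysaccharide-binding protein Lbp had a log2 fold change of -0.13 (edgeR FDR 0.999).

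All 20 signalling intermediates were tested and expressed, and 0 passed the FDR by edgeR's quasi-likelihood test or by DESeq2. Over all tested genes 0.0869% and 0.452% did. The adaptor Myd88, shared by all the receptors here but Tlr3, had 1048, 889 and 902 counts in control and 729, 714 and 655 in hPARG dishes, which did not overlap. At 40.6 ± 2.16 against 31.0 ± 2.15 CPM its log2 fold change was -0.39 (SE 0.102, 95% interval -0.63 to -0.15, edgeR FDR 0.713), and again -0.39 without the dishes numbered 2. The kinase Irak1 stood at 22.9 and 23.8 RPKM, with a log2 fold change of 0.09. The median over the 20 genes was -0.01.

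Of 8 negative regulators 7 were tested, and 0 passed the FDR (0.0869% of all tested genes did). Il1rl1 (ST2), the interleukin-33 receptor, whose membrane form is known to restrain Toll-like receptor signalling, stood at 1120 ± 149 CPM without and 846 ± 66.7 CPM with hPARG. Its log2 fold change was -0.41 (SE 0.134, 95% interval -0.72 to -0.10, edgeR FDR 0.976), and -0.44 without the dishes numbered 2 (edgeR FDR 0.16). These counts are per gene and do not tell how much of the RNA is for the membrane form. Over the 30 tested genes of these pathway lists, 2 (Myd88 and Il1rl1) had an unadjusted p under 0.05, where 3.95% of all tested genes did. Both were lower in hPARG dishes, where 2.54% of all tested genes were lower at this p. The CPM ranges of 4 of the 30 did not overlap, 1 higher and 3 lower, against 9.62% of all tested genes. The median log2 fold change of the 30 was -0.02.

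**Figure D4:**
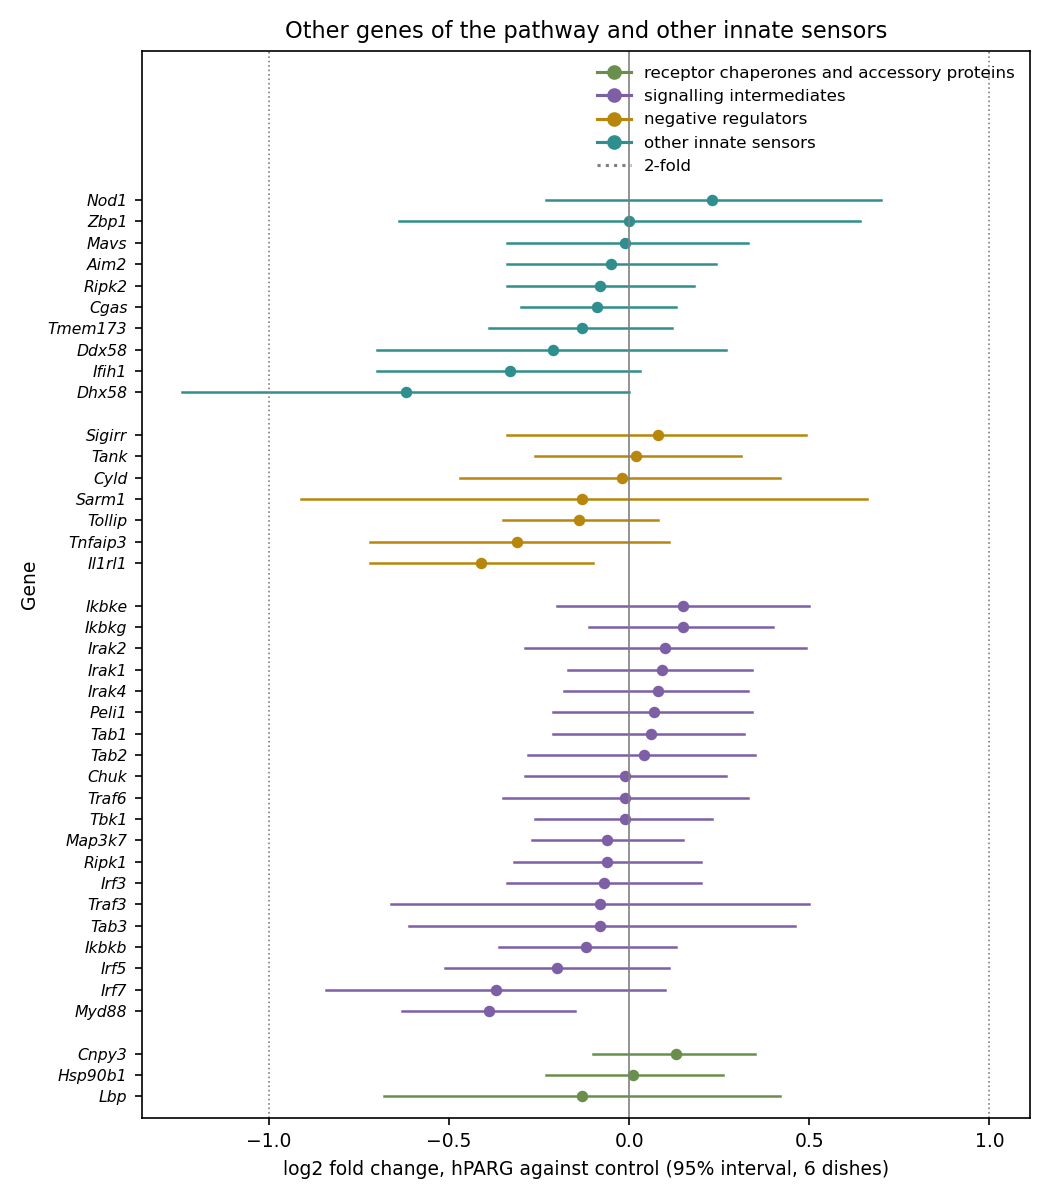
Log2 fold change (hPARG against control) with 95% intervals of the 40 tested genes of 4 lists, namely chaperones and accessory proteins, signalling intermediates, negative regulators and other innate sensors. Of these intervals 38 cross 0, and those of Myd88 (-0.39) and Il1rl1 (-0.41) lie below it.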

How the data were processed

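Poly(A) RNA of 6 dishes was sequenced as paired-end reads and mapped by the authors to GRCm38 (Ensembl release 96) in CLC Genomics Workbench version 12. Cultures are called dishes, as in the methods, although the labels name wells of a plate. The authors deposited whole-number counts per gene without normalization, which entered the tests. The authors also deposited RPKM values, counts divided by gene length and a library total, used for levels between genes. Their CPM, TPM, group means, fold changes and p-values were not used.

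Genes were kept with filterByExpr (minimum count 10), scaled by TMM and tested in edgeR 4.0.16 under R 4.3.3 by glmQLFit followed by glmQLFTest. Calls needed an FDR under 0.05 and more than a 2-fold difference. The standard error was taken as the size of a log2 fold change over the root of its F statistic. An exact permutation test of 3 against 3 cannot go below 0.1 and was not used. The model had no replicate block, as the methods name no pairing. Alternatives included DESeq2 1.42.0, other scalings and filters, the likelihood ratio test, the block and leaving out dishes. The fits were tested on simulated data.

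The genes and lists were chosen with earlier results of these data known. Named were all 10 genes, per list the gene with the highest RPKM and that with the largest change, genes of the pathway lists with an FDR under 0.05 with or without the block, Parg, and the 3 genes most like the gene with the smallest p. Cell type markers and sequence motifs were taken from fixed lists. Coordinates are from GENCODE M21 (GRCm38).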

Additional observations from a re-analysis of the deposited data

How the results depend on the processing

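The count of the 10 genes past the FDR and 2-fold thresholds was 0 under all 15 alternatives, as was that of the pathway genes. The count over all tested genes was 10, and it became 22 with DESeq2, 16 with no filter, 30 with the likelihood ratio test, 23 with the replicate block and 19 without both dishes numbered 2. With single dishes left out it ran from 3 (without hPARG dish 1) to 13, with 5 without hPARG dish 3. The causes were not tested. At 2 RPKM in place of 1, 5 of the 10 genes counted as expressed in place of 7. The log2 fold change of Tirap turned from -0.09 to 0.04 without control dish 2 (range over single dishes left out -0.21 to 0.04). Of 111 such values over 8 genes, 107 kept direction and side of the FDR, and 3 (Tlr2 with DESeq2, the likelihood ratio test and the block) passed it. Tlr1 was not tested where 10 counts were required in every dish.

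Deviations of same-numbered dishes from their group means correlated at 0.0963, 0.61 and 0.168 for dishes 1, 2 and 3, and those of differently numbered dishes at -0.441 to 0.335. Not every dish correlated best with its own number, so the dishes were taken to share only a number. With the replicate block Tlr2 had a log2 fold change of -0.72 (SE 0.122, edgeR FDR 0.00903), Myd88 -0.39 (FDR 0.0122) and Il1rl1 -0.40 (FDR 0.0023), all 3 past the FDR of 0.05, where 2.87% of all tested genes and 5 of the 8 fibroblast markers (Col1a1, Col3a1, Pdgfra, Fn1 and Thy1) passed. Ticam1 (FDR 0.0546), Tlr4 (FDR 0.0901) and Tlr1 (FDR 0.279) did not pass. Depth limits what can be said of Ticam2, Tlr6, Tlr1 and Ly96, which had 25 counts or fewer in every dish.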

Other observations

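RNA of cytosolic sensors of nucleic acids and of bacterial cell wall, which act apart from the Toll-like receptors, and of their adaptors was also measured. Of 12 such genes 10 were tested and 8 expressed. By edgeR's quasi-likelihood test 0 passed the FDR or an unadjusted p under 0.05, where 0.0869% and 3.95% of all tested genes did. By DESeq2 0 passed the FDR, where 0.452% of all tested genes did. The adaptor Mavs had a log2 fold change of -0.01. Dhx58 (LGP2), an RNA helicase, stood at 1.68 ± 0.37 CPM in control and 1.09 ± 0.0583 CPM in hPARG dishes, with a log2 fold change of -0.62 (SE 0.269, edgeR FDR 0.999) and no overlap between the groups. Of the 10 tested, 2 (Dhx58 and Ifih1) did not overlap, both lower in hPARG dishes, where 9.62% of all tested genes did not overlap and 6.00% were lower, and the median was -0.08.

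The genes whose log2 CPM profile over the 6 dishes was most like that of Tlr2 were Aig1, Tmem176b and Tmem176a. Their root mean square differences from Tlr2 were 0.0453, 0.0707 and 0.0785 on the log2 scale, where Tlr2 itself ranged over 1.07, and 5 of 11501 genes lay within 0.1. The dishes of all genes share the same libraries, and Aig1 was low, at 1.21 ± 0.181 CPM in control and 0.651 ± 0.0786 CPM in hPARG dishes. Because these genes were picked by their profile over the same dishes, fold changes near the -0.72 of Tlr2 follow from the choice. Tmem176b stood at 350.0 ± 27.8 CPM without and 211 ± 23.2 CPM with hPARG, with a log2 fold change of -0.73 (edgeR FDR 0.188). Tmem176a, its neighbour in name and family, had 188 ± 12.2 and 115 ± 15.5 CPM, with a log2 fold change of -0.70 (edgeR FDR 0.274).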
